A study of Mus musculus with 11 samples.

Results

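The genes described here are the Notch ligands, receptors and Fringe glycosyltransferases of the developing mouse cochlea, chosen by name: the receptors Notch1, Notch2 and Notch3, the ligands Jag1, Jag2, Dll1 and Dll3, and the Fringes Lfng, Mfng and Rfng. They are 10 of the 18667 genes listed at all 4 ages studied, and each was found in every table. Single cells of the cochlear sensory epithelium were captured with the 10x Genomics droplet system at embryonic day 14 (E14), E16, postnatal day 1 (P1) and P7. Every library came from untreated wild-type CD1 mice of either sex, so that age was the only labelled difference between groups, and each pooled the cochleae of several littermates. E14 and P7 had 2 libraries each, E16 had 3 and P1 had 4, with 30634 cells in all.

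Notch signalling passes between touching cells. A Jagged or Delta ligand on one cell binds a Notch receptor on its neighbour, proteolysis frees the intracellular domain of the receptor, and this domain joins the DNA-binding protein RBPJ to switch on genes such as the Hes and Hey repressors. Dll3 is an exception that acts mainly inside the cell that makes it, and Fringes add a sugar to the receptor that changes how it answers the ligands. In the cochlea the pathway is known for lateral inhibition, by which a new hair cell (HC, the mechanosensory cell) keeps its neighbours in the supporting cell (SC) fate, and for an earlier role of Jag1 in the prosensory domain.

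HCs, lateral SCs, inner phalangeal cells (SCs around the inner HC) and cells of Kölliker's organ (KO, the transient epithelium medial to the organ of Corti) were picked by gates on marker lists that hold none of the 10 genes. The lateral SC class stands for lateral prosensory cells at E14, prosensory and pillar cells at E16, and pillar and Deiters' cells at P1 and P7. A cell passed the HC gate with a unique molecular identifier (UMI, 1 counted RNA molecule) of at least 6 of 15 HC genes, the lateral SC gate with at least 4 of 14, the inner phalangeal gate with at least 4 of 6 and the KO gate with at least 7 of 13. Cells that passed several gates were left out, except that a cell passing the inner phalangeal and KO gates counted as inner phalangeal. In order of age, 540, 450, 1243 and 180 cells were left out in this way. Of these, 9, 36, 76 and 54 passed both the HC and the lateral SC gate. The part of this exclusion in the differences between classes was not tested. In order of age, HCs numbered 31, 507, 914 and 204, lateral SCs 106, 320, 735 and 162, and KO cells 1230, 3305, 9405 and 1302. At P1 there were 297 inner phalangeal cells. The E14 HC class held 14 and 17 cells in its 2 libraries, and of the 106 lateral SCs at E14, 46 stood just at the gate.

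Levels are mean counts per 1000000 UMIs (CPM) over the cells of a class in a library, and the library is the replicate. limma was fitted to log2(CPM + 10) for every gene that averaged 10 CPM or more, p-values were adjusted over all those genes (Benjamini-Hochberg) with a threshold of 0.05, and log2 differences are given ± their standard error. The added 10 CPM make a log2 difference understate the change of a gene near 0. Libraries had medians of 2478 to 5647.5 UMIs per cell, and between 9 and 84 cell barcodes per age occurred in more than 1 library. The summed level of the 14 lateral SC markers in HCs was, in order of age, 22.4%, 9.56%, 3.15% and 2.75% of their level in lateral SCs. That of the 15 HC markers in lateral SCs was 3.02%, 1.63%, 0.879% and 2.43% of their HC level. The part of such carried markers in the low values below was not tested. Where a call is said to be lost under another setting, its adjusted p was above 0.05, and in 78 of the 87 such values of members the difference kept at least 80% of the size reported.

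Promoter windows are shown for members found on the HC side and on the SC side, because RBPJ carries the Notch signal in SCs and Atoh1 is the factor that drives HC fate. The core RBPJ site was searched as GTGGGAA on either strand, so that it can also appear as its reverse complement. The E-box, of the class of sites that Atoh1 binds, was searched as CAGCTG, which reads the same on both strands and does not overlap the RBPJ core in these windows. The windows are the 250 bases before each RefSeq start on GRCm38.p6, read 5′ to 3′ on the strand of the gene, and capitals mark a match. Lfng (chr5:140607091-140607340, plus strand) stands for the SC side and the Notch target Hes5 (chr4:154960673-154960922, plus strand) is set beside it. Dll1 (chr17:15376933-15377182, minus strand), Dll3 (chr7:28301786-28302035, minus strand) and Jag2 (chr12:112929496-112929745, minus strand) stand for the HC side. By the GENCODE gene positions given below, the Dll3 and Jag2 windows lie inside the genes, after the GENCODE start. The bases before that start were not searched for Dll3 and Jag2.
Lfng: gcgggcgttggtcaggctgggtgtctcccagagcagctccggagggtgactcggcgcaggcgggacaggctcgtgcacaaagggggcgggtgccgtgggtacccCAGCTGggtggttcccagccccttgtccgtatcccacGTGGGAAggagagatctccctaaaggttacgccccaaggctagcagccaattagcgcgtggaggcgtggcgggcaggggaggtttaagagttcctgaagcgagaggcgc
Hes5: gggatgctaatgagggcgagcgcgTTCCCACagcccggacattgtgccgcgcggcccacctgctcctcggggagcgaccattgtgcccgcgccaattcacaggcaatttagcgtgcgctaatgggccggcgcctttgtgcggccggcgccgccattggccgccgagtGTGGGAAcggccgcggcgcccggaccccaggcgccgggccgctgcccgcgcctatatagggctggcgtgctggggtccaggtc
Dll1: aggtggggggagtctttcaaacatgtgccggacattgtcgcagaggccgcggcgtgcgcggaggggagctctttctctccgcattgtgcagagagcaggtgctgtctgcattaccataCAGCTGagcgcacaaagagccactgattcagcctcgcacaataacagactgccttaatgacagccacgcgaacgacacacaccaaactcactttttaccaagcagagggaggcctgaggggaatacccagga
Dll3: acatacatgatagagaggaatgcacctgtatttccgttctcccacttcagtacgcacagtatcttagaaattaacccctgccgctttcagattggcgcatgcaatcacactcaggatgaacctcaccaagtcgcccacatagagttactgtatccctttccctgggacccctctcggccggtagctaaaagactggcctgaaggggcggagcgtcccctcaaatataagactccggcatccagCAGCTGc
Jag2: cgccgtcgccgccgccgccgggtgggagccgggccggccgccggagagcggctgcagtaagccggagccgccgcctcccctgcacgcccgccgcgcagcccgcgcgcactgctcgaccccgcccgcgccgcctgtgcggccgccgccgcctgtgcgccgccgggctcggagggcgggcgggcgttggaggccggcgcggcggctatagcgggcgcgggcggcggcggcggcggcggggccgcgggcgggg
RefSeq windows were found for 9 of the 10 members, all but Mfng, and Dll1 had another window with neither motif. The RBPJ core was found in 1 member, Lfng, 109 bases before the start, and in 5.42% of all 32851 windows. The Hes5 window held it at 226 and 83 bases before the start. The E-box was found in 4 members, Jag1, Dll1, Dll3 and Lfng, and in 13.0% of all windows. These are matches of letters, with no measurement of binding.

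HCs and lateral SCs carried different sets of these genes. At E16 and P1, Jag2, Dll1, Dll3 and Mfng were higher in HCs and Notch1, Jag1 and Lfng were higher in lateral SCs. By limma, 1 of the 9 members tested was called at E14, where 0.503% of all genes tested were called. At E16, 7 of 9 were called beside 11.9% of all genes, at P1 9 of 9 beside 58%, and at P7 5 of 6 beside 21.6%. The median log2 difference over the members tested at P1 was 1.07, against 0.01 over all genes tested, and stands between members of opposite sign. A member that passed the filter on low values through the class in which it is high had to differ, so these counts describe the list. Notch2 was never tested, as its mean stayed under 10 CPM in each fit.

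**Figure D1:**
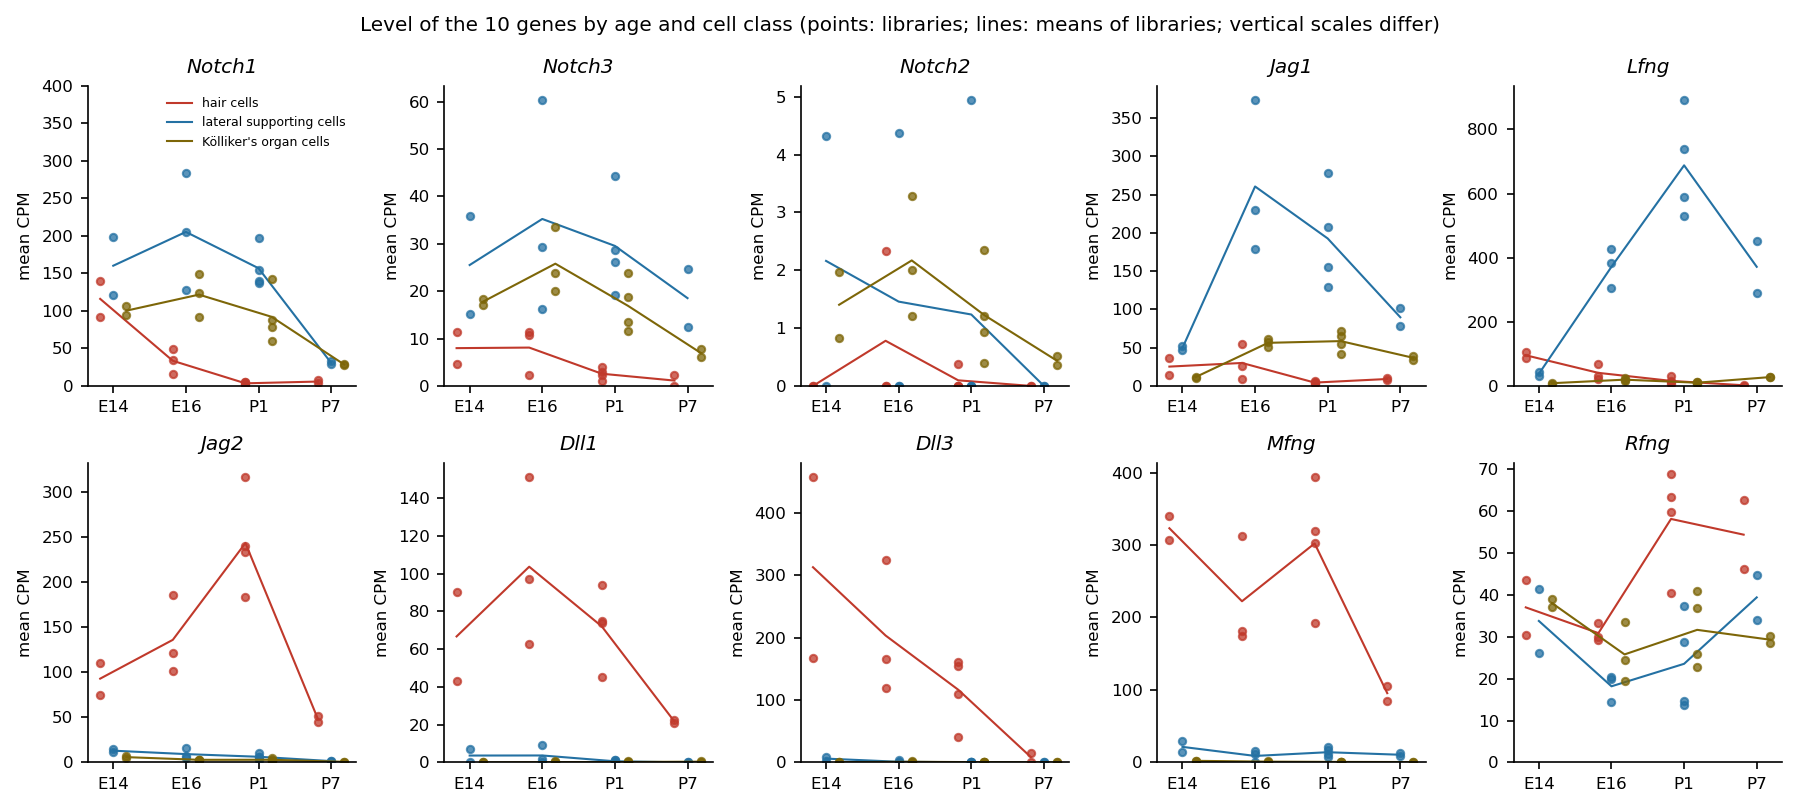
Mean CPM (vertical axes, scales differ between panels) of the 10 genes at E14, E16, P1 and P7 in HCs (red), lateral SCs (blue) and KO cells (brown), with 1 point per library and lines through the class means. HC points of Jag2, Dll1, Dll3 and Mfng lie above the lateral SC points at every age, and the mean of Lfng in lateral SCs went from 37.6 CPM at E14 to 688 CPM at P1.

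Jag2, the Jagged ligand of HCs, is located at chr12:112907819-112929776, minus strand (GENCODE gene positions on GRCm38, the build mm10, here and below). In HCs it was at 111 and 75.1 CPM in the E14 libraries, 185, 121 and 101 CPM at E16, 183, 233, 239.9 and 317 CPM at P1 and 44.3 and 51.3 CPM at P7. In lateral SCs it was at 11.1 and 14.9 CPM at E14, 16.0, 4.44 and 7.27 CPM at E16, 2.90, 5.82, 5.72 and 10.7 CPM at P1 and 1.28 and 1.63 CPM at P7. Every HC library stood above every lateral SC library of its age. The log2 difference was 2.14 ± 0.68 (adjusted p = 0.359) at E14, 2.93 ± 0.46 (adjusted p = 0.000527) at E16, 3.96 ± 0.19 (adjusted p = 7.77e-14) at P1 and 2.33 ± 0.26 (adjusted p = 0.00154) at P7. From P1 to P7 the HC level fell by 2.11 ± 0.30 on the log2 scale (adjusted p = 0.000112), with both P7 libraries below all P1 libraries. Of 14 lists of cell type markers, 7 also moved in the HC class between these ages with no overlap of libraries. The 15 HC markers were at 23445 to 29981 CPM at P1 and 19920 to 20432 CPM at P7, and the 6 inner phalangeal markers at 17.9 to 50.4 CPM and 82.5 to 102 CPM. Their part in the falls of Jag2, Dll1, Dll3 and Mfng in HCs was not tested. The change of Jag2 from E16 to P1, 0.81 ± 0.27, missed the threshold (adjusted p = 0.059).

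Dll1, a Delta ligand that activates receptors on neighbours (chr17:15367354-15376872, minus strand), was found in HCs and was at or near 0 in the other classes. Its HC level was 43.3 and 90.3 CPM at E14, 62.5, 97.3 and 151 CPM at E16, 45.4, 74.8, 73.9 and 94.2 CPM at P1 and 22.6 and 20.7 CPM at P7. Lateral SCs held 2 Dll1 UMIs in 106 cells at E14, 2 in 320 at E16, 3 in 735 at P1 and 0 in 162 at P7, where 3 UMIs would have been 2.59 CPM. KO cells at E14 held 0 in 1230 cells, which allows up to 0.577 CPM, counting error only. HC and lateral SC libraries did not overlap at any age. The log2 difference was 2.47 ± 0.53 (adjusted p = 0.128) at E14, 3.03 ± 0.41 (adjusted p = 0.000136) at E16 and 2.92 ± 0.17 (adjusted p = 4.44e-12) at P1, and Dll1 was too low at P7 to be tested. From P1 to P7 it fell by 1.34 ± 0.37 in HCs (adjusted p = 0.0221), a call lost without P1 replicate 2 (adjusted p = 0.0522), P1 replicate 3 (0.0544), P7 replicate 4 (0.132) or P7 replicate 5 (0.19), and also without cells over 3000 genes or 15000 UMIs (adjusted p = 0.096).

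Dll3, the Delta family member that acts within the cell (chr7:28293553-28302238, minus strand), was at 458 and 168 CPM in the HC libraries at E14, 119.7, 166 and 324 CPM at E16, 109.7, 155, 161 and 40.2 CPM at P1 and 1.30 and 15.8 CPM at P7. Lateral SC libraries reached at most 9.30 CPM and KO libraries at most 1.97 CPM. HC libraries were above all lateral SC libraries at each age, although they spread widely within an age. At P7 lateral SCs held 0 Dll3 UMIs in 162 cells, which allows up to 2.59 CPM, above the lower HC library. Dll3 was the member called at E14, with a log2 difference of 4.19 ± 0.63 (adjusted p = 0.0369), and it stayed about as large but was not called with 1 CPM added in place of 10 (5.46, adjusted p = 0.174), with no filter on low values (4.19, adjusted p = 0.109) or with UMIs summed over the class (3.95, adjusted p = 0.06). The difference was 4.17 ± 0.39 (adjusted p = 7.45e-06) at E16 and 3.48 ± 0.25 (adjusted p = 9.54e-11) at P1. In HCs Dll3 fell by 2.74 ± 0.52 from P1 to P7 (adjusted p = 0.00131), and without P7 replicate 4 the change was -2.15 (adjusted p = 0.0692).

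Jag1, the Jagged ligand of SCs (chr2:137081456-137116644, minus strand), was at 52.3 and 46.9 CPM in lateral SCs at E14, 373, 229 and 179 CPM at E16, 129.6, 207, 155 and 279 CPM at P1 and 77.8 and 102 CPM at P7. In HCs it was at 14.0 and 36.5 CPM at E14, 54.3, 26.3 and 9.33 CPM at E16, 3.74, 1.88, 4.91 and 6.88 CPM at P1 and 7.10 and 10.97 CPM at P7. All HC libraries were below all lateral SC libraries of their age. The log2 difference of HCs from lateral SCs was -0.83 ± 0.83 (adjusted p = 0.887) at E14, -2.86 ± 0.29 (adjusted p = 1.28e-05) at E16, -3.78 ± 0.15 (adjusted p = 8.18e-15) at P1 and -2.39 ± 0.34 (adjusted p = 0.00413) at P7. The P7 difference without cells over 3000 genes or 15000 UMIs was -2.46, as large as with them, and was not called (adjusted p = 0.194). At P1 the HC mean was 2.26% of the lateral SC mean, beside 3.15% for the lateral SC markers. From E14 to E16 Jag1 rose in lateral SCs by 2.12 ± 0.35 (adjusted p = 0.00157). Marker levels in this class also moved between these ages. Of the 14 lists, 8 did not overlap between libraries of the ages. The 14 lateral SC markers were at 1656 to 1727 CPM at E14 and 3690 to 4468 CPM at E16, and the 6 inner phalangeal markers at 289 to 427 CPM and 549 to 781 CPM. The 13 KO markers were at 1633 to 1839 CPM and 2112 to 2503 CPM, and 5 markers of Claudius cells, outer sulcus and lesser epithelial ridge at 2597 to 2769 CPM and 681 to 1431 CPM. At E16 inner phalangeal cells held Jag1 at a mean of 422 CPM. The part of these shifts in the rise was not tested. Jag1 also rose in KO cells, from 12.1 and 10.9 CPM to 57.4, 61.0 and 50.5 CPM, a log2 change of 1.62 ± 0.22 (adjusted p = 0.000838). In the KO class 10 of the 14 lists did not overlap between these ages. Among them were the 13 KO markers (8504 to 8550 CPM and then 13291 to 14427 CPM) and 4 cycling markers (88.5 to 124 and 14.9 to 39.3 CPM). The 5 Claudius, outer sulcus and lesser epithelial ridge markers, also among them, were at 1745 to 2100 and then 4141 to 9135 CPM. The part of these lists in the Jag1 rise in KO cells was not tested.

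Notch1, a receptor of the whole cochlear epithelium (chr2:26457903-26516663, minus strand), was high in both classes at E14 and nearly absent from HCs by P1. HC libraries were at 91.9 and 140.2 CPM at E14, 49.3, 35.1 and 16.2 CPM at E16, 1.30, 2.23, 5.06 and 5.22 CPM at P1 and 4.29 and 7.36 CPM at P7. Lateral SC libraries were at 122 and 199 CPM at E14, 283, 205 and 127 CPM at E16, 137, 139.7, 154 and 197 CPM at P1 and 28.7 and 32.7 CPM at P7. The classes overlapped at E14 and at no later age. The log2 difference of HCs from lateral SCs was -0.42 ± 0.51 (adjusted p = 0.907) at E14, -2.32 ± 0.26 (adjusted p = 2.62e-05) at E16, -3.63 ± 0.15 (adjusted p = 7.96e-15) at P1 and -1.37 ± 0.36 (adjusted p = 0.0401) at P7. The P7 call was lost without cells over 3000 genes or 15000 UMIs (-0.96, adjusted p = 0.518) and with 1 CPM added (adjusted p = 0.0599). At P1 the HC mean was 2.20% of the lateral SC mean, again beside 3.15% for the lateral SC markers.

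Over age, Notch1 in HCs changed by -1.59 ± 0.39 (adjusted p = 0.0134) from E14 to E16 and by -1.63 ± 0.33 (adjusted p = 0.0036) from E16 to P1. The first value rests on the 31 HCs of E14, and with a weight for each class and library it was -1.50 ± 0.57 (adjusted p = 0.165). In the HC class 5 of the 14 marker lists did not overlap between E14 and E16 and 8 between E16 and P1, where the lateral SC markers went from a mean of 399.9 to 252 CPM and the inner phalangeal markers from a mean of 169.6 to 35.7 CPM. Their part in the Notch1 falls was not tested. In lateral SCs Notch1 fell by 2.02 ± 0.32 from P1 to P7 (adjusted p = 0.000268). KO cells also fell over that time, from 59.9, 78.1, 88.2 and 142 CPM to 29.1 and 28.0 CPM, a log2 change of -1.35 ± 0.27 (adjusted p = 0.00241). In both classes the P7 libraries were below all P1 libraries. Marker lists moved with no overlap as well, 7 of 14 in lateral SCs and 12 of 14 in KO cells. In lateral SCs the 7 Hensen's cell markers went from a mean of 649.6 to 402 CPM and the HC markers from a mean of 246 to 490.0 CPM. In KO cells the 5 Claudius, outer sulcus and lesser epithelial ridge markers went from a mean of 25445 to 7191 CPM. At P1 they stood higher there than in lateral SCs (a mean of 2095 CPM), so this list did not mark lateral cells alone. The inner phalangeal markers in KO cells went from a mean of 256 to 1580 CPM. The part of these shifts in the Notch1 falls was not tested.

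Notch3 (chr17:32120820-32166852, minus strand), a receptor best known from the muscle cells of vessel walls, was at 19.2, 44.2, 26.1 and 28.7 CPM in lateral SCs and 2.96, 1.01, 2.401 and 3.93 CPM in HCs at P1. Its lateral SC libraries lay between 12.4 and 60.3 CPM over all ages and its HC libraries between 0 and 11.3 CPM. The log2 difference of HCs from lateral SCs was called at P1, -1.62 ± 0.18 (adjusted p = 1.36e-07), and not at E14, -0.94 ± 0.62 (adjusted p = 0.75), or E16, -1.25 ± 0.47 (adjusted p = 0.122). Notch2 (chr3:98013527-98150361, plus strand) averaged at most 2.17 CPM in HCs, lateral SCs and KO cells. At P7 it had 0 UMIs in 204 HCs and in 162 lateral SCs, which allows up to 2.22 and 2.59 CPM.

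Lfng (chr5:140607320-140615545, plus strand), the Fringe known from segmentation of the embryo, had the higher mean in HCs at E14 and in lateral SCs at later ages. Its E14 levels rest on 19 UMIs in HCs and 26 in lateral SCs. At E14 it was at 85.9 and 105 CPM in HCs and 43.2 and 32.1 CPM in lateral SCs, with no overlap and a log2 difference that was not called, 1.15 ± 0.68 (adjusted p = 0.718). At E16 it was at 21.7, 31.3 and 69.2 CPM in HCs and 305, 382 and 428 CPM in lateral SCs. At P1 it was at 6.96, 14.0, 11.4 and 30.5 CPM in HCs and 739.9, 532, 589.9 and 891 CPM in lateral SCs, and at P7 at 0.870 and 3.20 CPM and 289.6 and 454 CPM. From E16 on every lateral SC library stood above every HC library. The log2 difference of HCs from lateral SCs was -3.01 ± 0.31 (adjusted p = 1.56e-05) at E16, -4.81 ± 0.19 (adjusted p = 3.8e-15) at P1 and -4.96 ± 0.79 (adjusted p = 0.00654) at P7. In lateral SCs Lfng rose by 3.0 ± 0.29 (adjusted p = 9.34e-06) from E14 to E16. Over these ages the marker shifts given with Jag1 took place in the same class, where the inner phalangeal markers went from a mean of 358 to 658 CPM and the lateral SC markers from 1692 to 4181 CPM. At E16 inner phalangeal cells held Lfng at a mean of 269 CPM. The part of these shifts in the Lfng rise was not tested. The later changes of Lfng in lateral SCs, 0.86 ± 0.24 (adjusted p = 0.059) from E16 to P1 and -0.88 ± 0.28 (adjusted p = 0.0577) from P1 to P7, missed the threshold.

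Mfng (chr15:78755882-78773475, minus strand), another Fringe, was on the HC side. Its HC libraries were at 307 and 339.7 CPM at E14, 174, 181 and 312 CPM at E16, 193, 319.5, 302 and 394 CPM at P1 and 85.1 and 106 CPM at P7. Lateral SC libraries reached at most 28.9 CPM and KO libraries at most 2.34 CPM, so that HC libraries were above both at each age. The log2 difference of HCs from lateral SCs was 3.45 ± 0.61 (adjusted p = 0.0705) at E14, 3.68 ± 0.41 (adjusted p = 2.66e-05) at E16, 3.69 ± 0.22 (adjusted p = 4.1e-12) at P1 and 2.36 ± 0.33 (adjusted p = 0.00383) at P7. In HCs Mfng fell by 1.53 ± 0.30 from P1 to P7 (adjusted p = 0.00205), and without P7 replicate 4 the change was -1.39 (adjusted p = 0.0545).

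Rfng (chr11:120780746-120784207, minus strand), the remaining Fringe, was spread over all classes. At P1 it was at 40.5, 63.4, 68.9 and 60.0 CPM in HCs and 13.7, 37.3, 28.7 and 14.6 CPM in lateral SCs. The groups did not overlap, and the log2 difference was 1.07 ± 0.17 (adjusted p = 1.82e-05), and with stricter gates it was 1.09 and was not called (adjusted p = 0.0653). At the other ages it was 0.11 ± 0.80 (adjusted p = 0.987) at E14, 0.54 ± 0.42 (adjusted p = 0.539) at E16 and 0.38 ± 0.35 (adjusted p = 0.501) at P7.

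**Figure D2:**
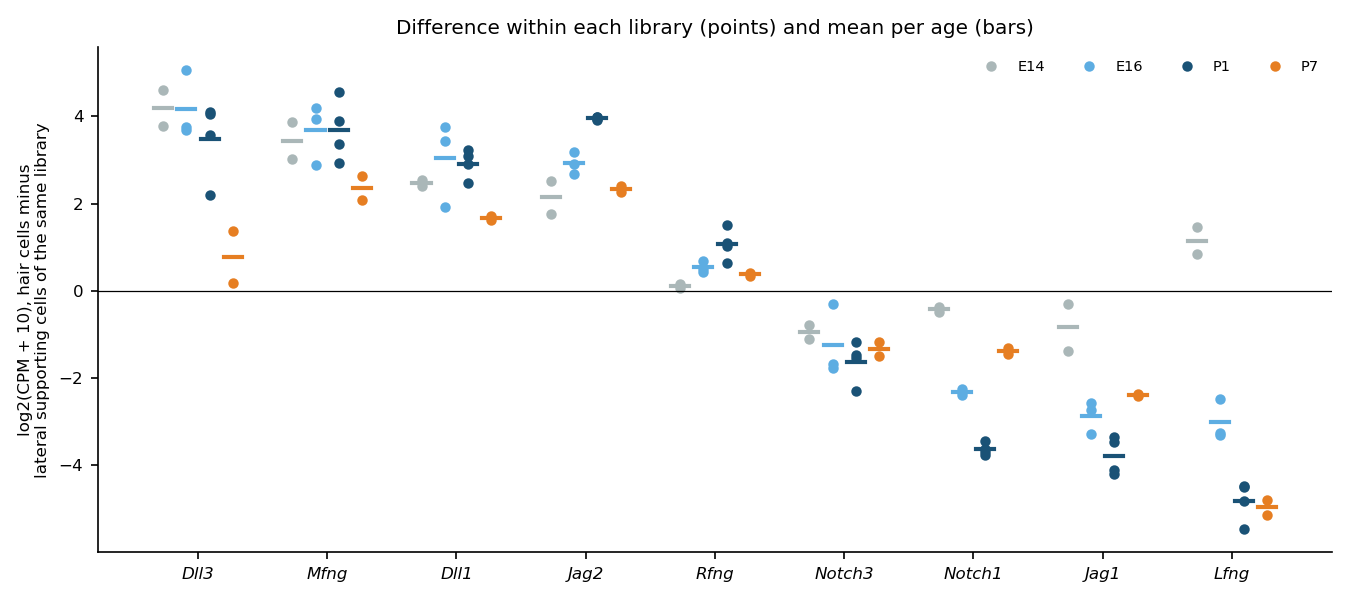
Log2(CPM + 10) of HCs minus that of lateral SCs of the same library (vertical axis) for the 9 members tested, with 1 point per library and bars for the mean of each age. Lfng is above 0 at E14 and below 0 in every later library, and the mean Notch1 difference goes from -0.42 at E14 to -3.63 at P1.

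Whether the difference between HCs and lateral SCs changed with age was tested itself. Between E16 and P1, 3 of 9 members were called beside 10.5% of all genes. The HC minus lateral SC difference of Lfng changed by -1.80 ± 0.29 (adjusted p = 0.00138), that of Notch1 by -1.31 ± 0.27 (adjusted p = 0.00648) and that of Jag2 by 1.03 ± 0.28 (adjusted p = 0.0305). The Notch1 and Jag2 calls were lost with stricter gates (adjusted p = 0.0649 and 0.234), and the Jag2 call also with 1 CPM added (adjusted p = 0.0908), without E16 replicate 3 (adjusted p = 0.076) or any 1 of the 4 P1 libraries (adjusted p of 0.0705 to 0.0889). The same test between E14 and E16 was added after the levels had been seen. It called Lfng (-4.16 ± 0.46, adjusted p = 0.000123) and Notch1 (-1.90 ± 0.42, adjusted p = 0.0404), where 0.949% of all genes were called. With weights per class and library the values were -4.08 ± 0.52, adjusted p = 2.57e-06 for Lfng and -1.90 ± 0.49, adjusted p = 0.0399 for Notch1, and 1.18% of all genes were called.

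KO cells lie medial to the organ of Corti, and at P1 they held Notch1 at 59.9, 78.1, 88.2 and 142 CPM and Jag1 at 42.3, 65.7, 54.7 and 71.5 CPM. Against KO cells, lateral SCs had 0 of 9 members called by limma at E14, beside 0.217% of all genes and with no member at an unadjusted p under 0.05. At P7 0 of 6 were called beside 4.33%, with Lfng, Jag1 and Mfng at unadjusted p of 0.00497, 0.0167 and 0.0233. With weights per class and library, 4 members were called at E14 and 3 at P7. At E16, 2 of 9 were called, both higher in lateral SCs, beside 5.55% of all genes called and 3.03% called higher. They were Jag1, 1.97 ± 0.29 (adjusted p = 0.000695), and Lfng, 3.69 ± 0.31 (adjusted p = 5.93e-06).

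At P1, 5 of 9 members were higher in lateral SCs than in KO cells, beside 17.4% of all genes called higher and 29.2% called in either direction. Lfng, at 13.6, 7.68, 6.16 and 12.6 CPM in KO cells, differed by 5.12 ± 0.19 (adjusted p = 9.83e-15) and Jag1 by 1.53 ± 0.15 (adjusted p = 6.54e-08). Mfng differed by 1.13 ± 0.22 (adjusted p = 0.00035) and Notch1 by 0.75 ± 0.15 (adjusted p = 0.00039), and with stricter gates they were 0.89 and 0.76 and were not called (adjusted p = 0.151 and 0.0527). Notch3 differed by 0.54 ± 0.18 (adjusted p = 0.0309), a call lost without any 1 of the 4 libraries (adjusted p of 0.0651 to 0.124) and also with stricter gates (0.382), 1 CPM added (0.113), no filter (0.0536) or no deep cells (0.0792). The summed level of the 13 KO markers in lateral SCs was 15.0% of their KO level at P1.

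Inner phalangeal cells at P1 held more Jag1 and less Lfng than lateral SCs. Their Jag1 libraries were at 244, 368, 337 and 340.0 CPM, above the lateral SC class within each library, and the log2 difference was 0.75 ± 0.15 (adjusted p = 0.000903). Their Lfng libraries were at 328, 176, 163 and 251 CPM, all below the lateral SC libraries, with a difference of -1.57 ± 0.19 (adjusted p = 1.36e-06). Mfng differed by -1.05 ± 0.22 (adjusted p = 0.00116) and Notch1 by -0.57 ± 0.15 (adjusted p = 0.00679), so that 4 of 9 members were called beside 25.5% of all genes. With stricter gates Mfng (-0.62) and Notch1 (-0.26) were no longer called (adjusted p = 0.247 and 0.489), and Notch1 was also lost without P1 replicate 1 (adjusted p = 0.0643). Of the 297 inner phalangeal cells, 182 stood just at the gate. The summed level of the 13 KO markers was 43.8% of their KO level in inner phalangeal cells (5450 to 6503 CPM over libraries) and 15.0% in lateral SCs (1755 to 2354 CPM), and their part in the differences was not tested.

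Within HCs, the inner type, which passes sound to the auditory nerve, was compared with the outer type, which amplifies it, by marker gates. At P1 there were 153 inner and 607 outer HCs, and 3 of 6 members tested were called beside 10.7% of all genes. A further 154 HCs were placed in neither type and entered neither side. Lfng was at 8.31, 7.51, 24.6 and 66.6 CPM in inner and 1.74, 0, 2.53 and 6.38 CPM in outer HCs, with no overlap and a log2 difference of 1.28 ± 0.30 (adjusted p = 0.00262). This difference holds against gated outer HCs only. The mean of Lfng was 26.8 CPM in inner, 2.66 CPM in outer and 15.7 CPM in all HCs. In the earlier part of the HCs not of the inner type, described below, it was 24.7 CPM. Dll1 was at 27.7, 45.4, 34.5 and 35.9 CPM in inner and 43.9, 88.7, 77.5 and 99.2 CPM in outer HCs, a difference of -0.89 ± 0.22 (adjusted p = 0.00409). Dll3 was at 57.3, 63.9, 56.8 and 4.16 CPM in inner and 91.1, 168, 180.3 and 41.0 CPM in outer HCs, a difference of -1.30 ± 0.22 (adjusted p = 1.34e-05). The outer type was the higher one within each library for Dll1 and Dll3. The Dll1 call was lost without cells over 3000 genes or 15000 UMIs (adjusted p = 0.375). Jag2, 0.12 ± 0.13 (adjusted p = 0.67), Mfng, -0.38 ± 0.13 (adjusted p = 0.0525), and Rfng, 0.22 ± 0.21 (adjusted p = 0.629), were not called.

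At P7, with 73 inner and 127 outer HCs, Jag2 was at 78.0 and 103 CPM in inner and 27.5 and 21.8 CPM in outer HCs, a log2 difference of 1.53 ± 0.40 (adjusted p = 0.0026). Mfng was at 143 and 147 CPM in inner and 56.8 and 83.7 CPM in outer HCs, a difference of 0.97 ± 0.32 (adjusted p = 0.0232). These were 2 of 4 members tested, beside 12.8% of all genes, and both were higher in the inner type in each library. Dll1, -0.33 ± 0.48 (adjusted p = 0.761), and Rfng, 0.30 ± 0.39 (adjusted p = 0.731), were not called. With 2 libraries and a library block, the p-values rest on the spread that limma pools over genes. Whether the inner against outer difference changed from P1 to P7 was not tested.

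**Figure D3:**
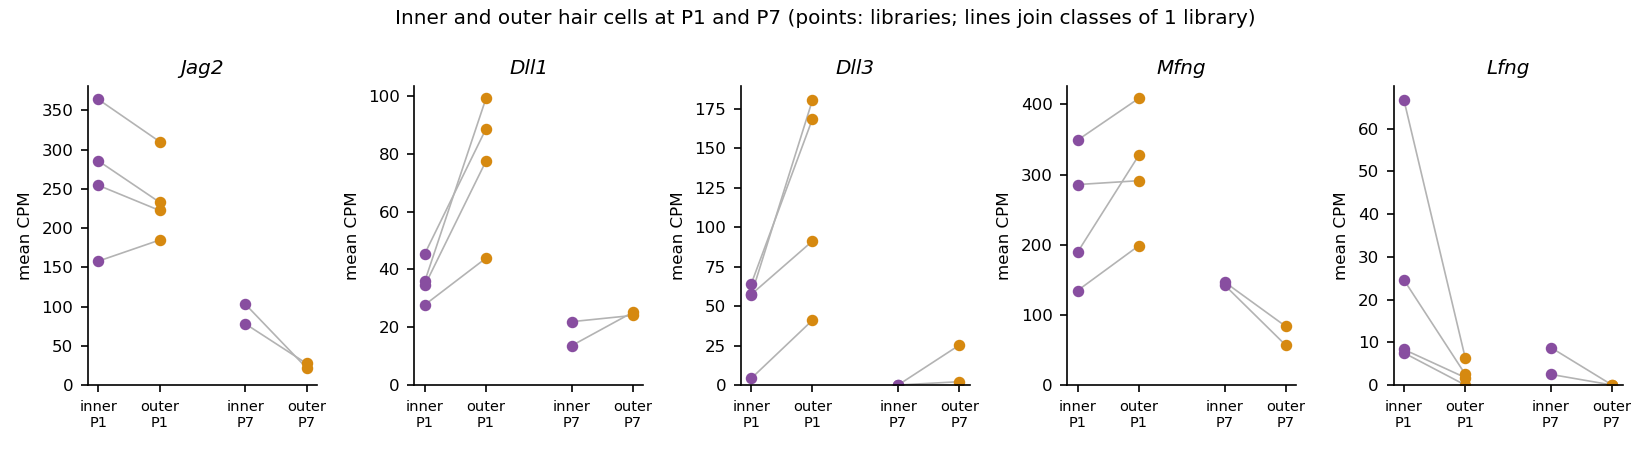
Mean CPM (vertical axes) of 5 members in inner and outer HCs at P1 and P7, with 1 point per library and lines joining the types of 1 library. Lfng is higher in inner and Dll1 in outer HCs in all 4 P1 libraries, and Jag2 separates the types at P7 (78.0 and 103 CPM against 27.5 and 21.8 CPM). HCs placed in neither type (154 at P1) are not shown.

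Of the P1 HCs not of the inner type, 760 were also split into equal parts within each library by a balance of late and early HC markers. These are ranges of a score and not cell types, and 44 cells lay within 0.1 SD of the dividing value. In the later part 4 of 6 members tested were lower, beside 9.26% of all genes called lower and 17.9% called in either direction. Dll3 was at 179, 247, 244 and 75.4 CPM in the earlier and 67.8, 115, 125 and 15.2 CPM in the later part, a log2 difference of -1.25 ± 0.16 (adjusted p = 1.78e-08). Lfng was at 11.9, 31.8, 14.0 and 41.3 CPM in the earlier and 1.35, 0, 2.83 and 9.75 CPM in the later part, a difference of -1.32 ± 0.26 (adjusted p = 0.000135). Both were lower in the later part of every library. The 4 largest calls among other Notch pathway genes were Hes5 (-0.96 ± 0.27, adjusted p = 0.00754), Hes1 (-0.79 ± 0.27, adjusted p = 0.0296), Maml2 (0.76 ± 0.23, adjusted p = 0.0157) and Neurl1b (-0.66 ± 0.20, adjusted p = 0.0165). Hes5 and Hes1 were, like Lfng, higher in lateral SCs than in HCs at P1. The part of RNA from lateral SCs in the Lfng difference was not tested. Dll1, -0.60 ± 0.18 (adjusted p = 0.012), lost its call without P1 replicate 2, 3 or 4 (adjusted p = 0.0697, 0.106 and 0.101), and Mfng, -0.36 ± 0.11 (adjusted p = 0.021), without replicate 2 or 4 (adjusted p = 0.196 and 0.141). With no filter on low values both were lost (adjusted p = 0.0918 and 0.114), and Mfng also without the deep cells (0.132) or with summed UMIs (0.0505). Jag2 was not called, -0.13 ± 0.12 (adjusted p = 0.501). The median depth was 6373.5 UMIs in the earlier and 5948 in the later part.

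Over age within a class, most calls are given above with their genes. In HCs 1 of 8 members tested was called from E14 to E16 beside 14.1% of all genes, 2 from E16 to P1 beside 11.3% and 4 from P1 to P7 beside 13.6%. All of them were lower at the later age, beside 4.86%, 4.49% and 8.22% of all genes called lower. The fit of HCs from E14 to E16 also gave calls on simulated data drawn without change. The call from E16 to P1 not yet given was Jag1, -1.32 ± 0.37 (adjusted p = 0.029), lost without E16 replicate 1 or 2 or P1 replicate 1, 2 or 3 (adjusted p of 0.0569 to 0.182) and with no filter (0.0969). Over this step the inner phalangeal markers in the HC class went from a mean of 169.6 to 35.7 CPM and the lateral SC markers from 399.9 to 252 CPM, where at E16 inner phalangeal cells held Jag1 at 422 CPM and lateral SCs at 261 CPM, and their part in the Jag1 fall was not tested. In lateral SCs 2 of 6 were called from E14 to E16 beside 2.69% of all genes, 0 by limma from E16 to P1 beside 3.3%, where Lfng alone had an unadjusted p under 0.05 (0.00222), and 1 from P1 to P7 beside 7.9%.

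In KO cells 1 of 5 members tested was called from E14 to E16 beside 7.1% of all genes, 1 from E16 to P1 beside 14% and 3 from P1 to P7 beside 23.9%. Lfng in KO cells went from 16.9, 17.7 and 24.0 CPM at E16 to 13.6, 7.68, 6.16 and 12.6 CPM at P1 and 28.1 and 26.8 CPM at P7. The first step, -0.57 ± 0.18 (adjusted p = 0.0453), lost its call without E16 replicate 1, 2 or 3 or P1 replicate 2 or 3 (adjusted p of 0.0861 to 0.131), with 1 CPM added (0.0531), with no filter (0.0852) or with summed UMIs (0.101). The second, 0.92 ± 0.20 (adjusted p = 0.00379), lost it without P7 replicate 4 (adjusted p = 0.0565). Beside these steps 9 and then 12 of the 14 marker lists moved in KO cells with no overlap. From P1 to P7 the inner phalangeal markers went from a mean of 256 to 1580 CPM and the lateral SC markers from a mean of 102 to 249 CPM, and at P7 inner phalangeal cells (16 cells) held Lfng at a mean of 161 CPM against 27.5 CPM in KO cells. The part of these shifts in the Lfng and Notch3 changes was not tested. Notch3 changed by -0.64 ± 0.22 (adjusted p = 0.0443) from P1 to P7, a call lost without P1 replicate 2 or 3 or P7 replicate 4 or 5 (adjusted p of 0.101 to 0.285), with stricter gates (0.0579), with no filter (0.0775) or with summed UMIs (0.0871).

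For shares of single cells, each P1 cell was thinned to 1500 UMIs, and exact binomial 95% intervals, which cover counting error only, are in brackets. Lfng was seen in 61.2% (57.6 to 64.8) of 735 lateral SCs, 26.6% (21.7 to 32.0) of 297 inner phalangeal cells, 1.97% of HCs and 1.70% of 9405 KO cells. Jag1 was seen in 24.6% (21.6 to 27.9) of lateral SCs, 35.0% (29.6 to 40.7) of inner phalangeal cells, 7.84% of KO cells and 0.328% of HCs. Notch1 was seen in 20.0% (17.2 to 23.1) of lateral SCs, 13.1% of KO cells and 0.656% of HCs. HCs thus gave the lowest shares of Jag1 and Notch1, with every class thinned to 1500 UMIs per cell. The median depth before thinning was 6393 UMIs in HCs and 5259 UMIs in lateral SCs. Before thinning, the lateral SC shares were 91.0% for Lfng, 57.4% for Jag1 and 50.3% for Notch1.

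Of 914 HCs at P1, Mfng was seen in 37.4% (34.3 to 40.6), Jag2 in 32.3% (29.3 to 35.4), Dll3 in 13.3% (11.2 to 15.7) and Dll1 in 9.85% (7.99 to 11.96). In KO cells, with a median of 4701 UMIs before thinning, these genes were seen in 0.117%, 0.404%, 0.0532% and 0.0213% of cells. The part of free RNA in these shares was not tested. Before thinning, the HC shares were 78.2%, 75.5%, 35.4% and 31.8%. Jag2 and Mfng were seen together in 13.2% of HCs, and Jag1 and Lfng together in 14.3% of lateral SCs. Whether these joint shares differ from what the single shares give by chance was not tested.

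**Figure D4:**
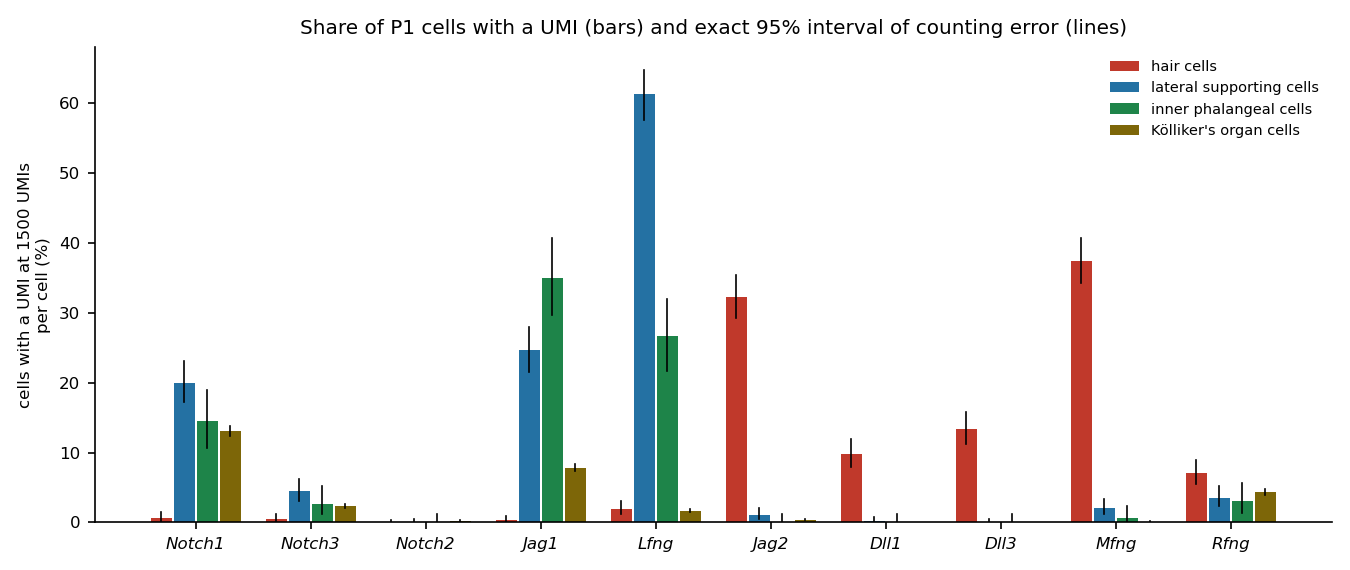
Share of P1 cells with a UMI of each member after thinning to 1500 UMIs per cell (vertical axis, percent) in HCs, lateral SCs, inner phalangeal cells and KO cells, with lines for the exact 95% interval of counting error. Lfng reaches 61.2% of lateral SCs, and Jag2 and Mfng reach 32.3% and 37.4% of HCs and at most 2.04% of the other classes.

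A list of 40 other Notch pathway genes was followed in the same fits. Between HCs and lateral SCs, 2 of 29 tested were called at E14 (both higher in HCs), beside 0.503% of all genes called and 0.332% called higher. At E16 10 of 33 were called (4 higher, 6 lower) beside 11.9% of all genes, at P1 15 of 31 (6 higher, 9 lower) beside 58% and at P7 8 of 31 (2 higher, 6 lower) beside 21.6%. The share of the list called at P1 was thus below that of all genes. Dlk2, a Delta-like relative of the ligands, had the largest difference of them at each age. Its HC level was 417 ± 129 CPM (mean ± SD, n = 2) at E14, 521 ± 38.6 CPM (n = 3) at E16, 784 ± 25.5 CPM (n = 4) at P1 and 217 ± 1.96 CPM (n = 2) at P7, and no lateral SC library exceeded 8.55 CPM. The log2 difference was 6.17 ± 0.16 (adjusted p = 8.17e-18) at P1. Dll4, another Delta ligand, had 0 UMIs in the 31 HCs of E14, which allows up to 17.2 CPM and so does not separate E14 from E16. It rose in HCs from 13.4 ± 8.23 CPM (n = 3) at E16 to 74.0 ± 39.0 CPM (n = 4) at P1, a log2 change of 1.78 ± 0.37 (adjusted p = 0.00437). Of 34 pathway genes tested in HCs over age, 4 were called from E14 to E16 beside 14.1% of all genes, 3 from E16 to P1 beside 11.3% and 7 from P1 to P7 beside 13.6%. From E14 to E16 these were the receptor protease Adam10 (2.09 ± 0.34, adjusted p = 0.00096), the feedback inhibitor Nrarp (-1.53 ± 0.46, adjusted p = 0.035), the coactivator Maml3 (-1.11 ± 0.33, adjusted p = 0.0325) and the Notch antagonist Numb, values that rest on the 31 HCs of E14. Numb had 0 UMIs in them, which allows up to 17.2 CPM, above its mean of 13.1 CPM at E16, so that for Numb too the ages are not separated. The same unweighted fit gave calls between E14 and E16 HCs on simulated data drawn without change, so these 4 calls and the 14.1% may hold false ones. From E16 to P1 the called genes were Dll4, Hey1 (-1.48 ± 0.31, adjusted p = 0.00441) and Adam10 (-1.17 ± 0.28, adjusted p = 0.0128). Over this step the lateral SC markers in the HC class went from a mean of 399.9 to 252 CPM and the inner phalangeal markers from 169.6 to 35.7 CPM. Their part in the Hey1 fall was not tested. From P1 to P7 the 4 largest changes were those of Hes6, a Hes relative linked to differentiating cells (-4.31 ± 0.32, adjusted p = 8.47e-08), the ubiquitin ligase gene Neurl1b, the gamma-secretase subunit Aph1c (2.06 ± 0.34, adjusted p = 0.000394) and Dll4 (-1.93 ± 0.42, adjusted p = 0.00394). Neurl1b was at 41.0 ± 9.35 CPM (n = 4) at P1 and had 0 UMIs in the 204 HCs of P7, which allows up to 2.22 CPM.

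Between inner and outer HCs, 3 of 32 pathway genes tested were called at P1 beside 10.7% of all genes and 4 of 25 at P7 beside 12.8%, shares close to those of all genes. At P1 they were Heyl (1.11 ± 0.29, adjusted p = 0.00771), Hes6 (-0.97 ± 0.09, adjusted p = 2.82e-11) and Maml2 (-0.97 ± 0.29, adjusted p = 0.0196). At P7 Dlk2 was at 587 ± 16.5 CPM in inner and 11.8 ± 3.98 CPM in outer HCs (n = 2 each), a log2 difference of 4.79 ± 0.32, whereas Dner, an atypical Notch ligand, had 0 UMIs in 73 inner HCs, which allows up to 5.66 CPM, and was at 64.3 ± 16.3 CPM in outer HCs. The other two were Aph1c (-1.64 ± 0.41, adjusted p = 0.00128) and Dtx3, a Deltex gene (1.18 ± 0.36, adjusted p = 0.0122). Between lateral SCs and KO cells, 4 of 33 were called at E16, all higher in lateral SCs beside 3.03% of all genes called higher. They were Hes5 (3.76 ± 0.80, adjusted p = 0.0115), Hey1 (2.83 ± 0.40, adjusted p = 0.000506), Hey2 (2.22 ± 0.43, adjusted p = 0.00584) and Hes6 (1.60 ± 0.33, adjusted p = 0.0101). At P1 12 of 31 were called (9 higher, 3 lower) beside 29.2% of all genes, with the largest differences for Hes5 (3.95 ± 0.24), Hey2 (2.07 ± 0.26), Hey1 (1.99 ± 0.17) and Nrarp (1.04 ± 0.22). At P7 2 of 31 were called beside 4.33%, Hes5 higher (3.25 ± 0.44, adjusted p = 0.0145) and Hey1 lower (-1.28 ± 0.24, adjusted p = 0.039). At E14 0 of 29 were called by limma beside 0.217%, with Hes1, Hes6, Hey1 and Nrarp at unadjusted p of 0.0108, 0.000147, 0.000247 and 0.029, genes named after their values were seen. Between inner phalangeal cells and lateral SCs, 7 of 31 were called beside 25.5% of all genes, all of them lower beside 14.1% of all genes called lower, led by Hey2 (-1.50 ± 0.26, adjusted p = 0.000164), Hes5 (-1.36 ± 0.24, adjusted p = 0.000204), Hey1 (-0.96 ± 0.17, adjusted p = 0.00019) and Aph1b (-0.65 ± 0.20, adjusted p = 0.0197).

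Of the Hes and Hey genes, most of which Notch switches on, Hes1, Hes5, Hey1, Hey2 and Heyl were lower in HCs than in lateral SCs at P1 and Hes6 was higher. The log2 difference of HCs from lateral SCs was -5.97 ± 0.24 (adjusted p = 6.95e-15) for Hes5, -5.30 ± 0.17 (adjusted p = 1.95e-16) for Hey1 and -3.88 ± 0.21 (adjusted p = 1.16e-12) for Hes1, which with Dlk2 were the 4 largest. After Dlk2, the largest differences were at E14 that of Hes6 (2.31 ± 0.29), at E16 those of Hes5 (-3.59 ± 0.80), Hey1 (-3.46 ± 0.40) and Hes6 (2.67 ± 0.33), and at P7 those of Hes5 (-3.96 ± 0.44), Nrarp (-3.84 ± 0.33) and Hes1 (-3.71 ± 0.28). At P1 the Hes6 difference was 3.17 ± 0.23 (adjusted p = 8.76e-11), so that Hes6 was higher in HCs at E14, E16 and P1. Hes5 in lateral SCs was at 13.1 ± 6.18 CPM (n = 2) at E14, 441 ± 315 CPM (n = 3) at E16, 1639 ± 501 CPM (n = 4) at P1 and 185 ± 65.1 CPM (n = 2) at P7. It rose by 4.09 ± 0.42 (adjusted p = 1.3e-05) and 2.04 ± 0.35 (adjusted p = 0.00182) and then fell by 3.06 ± 0.40 (adjusted p = 3.8e-05). The 14 lateral SC markers in this class were at means of 1692, 4181, 8013 and 11222 CPM in order of age, and their part in the Hes5 changes was not tested.

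**Figure D5:**
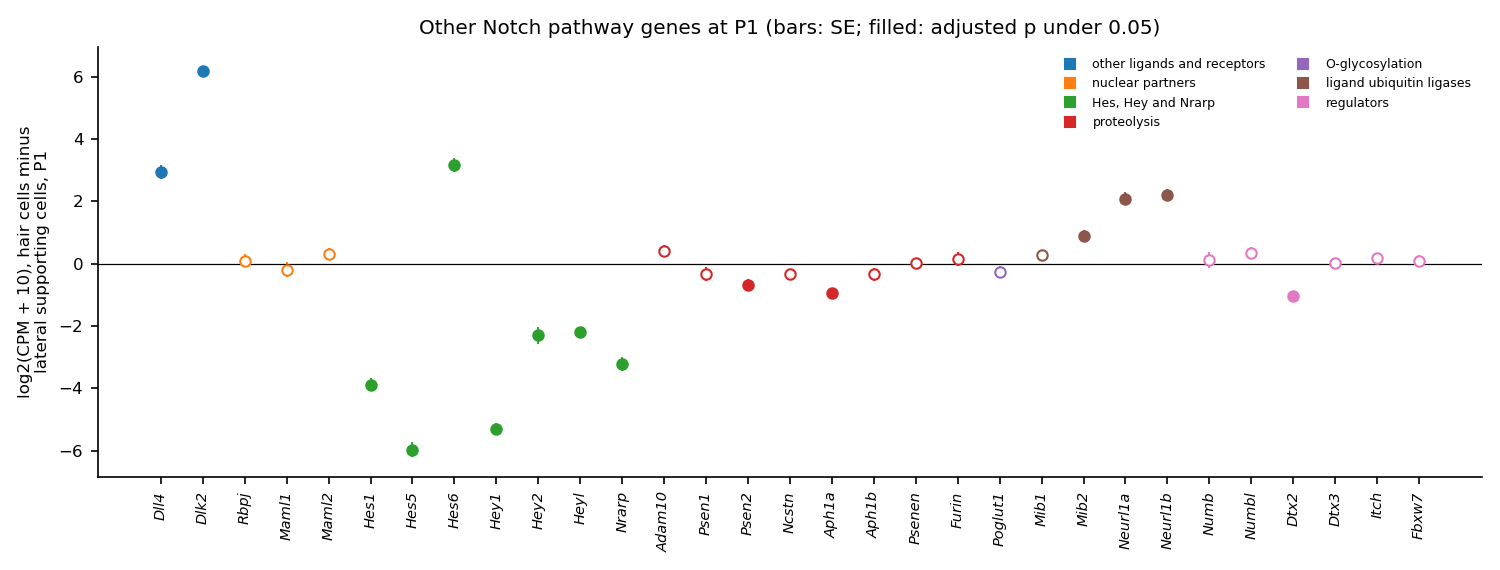
Log2(CPM + 10) of HCs minus that of lateral SCs at P1 (vertical axis) for the 31 other Notch pathway genes tested, coloured by role, with bars for the SE and filled points for an adjusted p under 0.05. Dlk2 (6.17) and Hes5 (-5.97) stand at the ends.

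The genes whose log2(CPM + 10) was most like that of a member were ranked by Pearson's r over 16 means (4 classes at 4 ages) among 9066 candidates, as a description, since the means share libraries and 2 of the inner phalangeal means rest on 10 and 16 cells. Dll1 was followed by Tcerg1l (r = 0.986), Thsd7b (r = 0.982) and Dlk2 (r = 0.981), and Jag2 by D7Ertd443e (r = 0.969), Evl (r = 0.964) and Kcnh7 (r = 0.959). Jag1 was followed by Ptprk (r = 0.940), Ttyh1 (r = 0.939) and Slitrk6 (r = 0.909). Lfng was followed by Cox4i2 (r = 0.909), Fgfrl1 (r = 0.906) and Gng12 (r = 0.901), and the first after Notch1 was Id3 (r = 0.960).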

How the data were processed

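Cochlear cells were captured with 10x chemistry, and the submitters' processing notes name mm10, Cell Ranger 2.1.1 and Seurat 2.0. The authors deposited natural log values, ln(1 + 10000 × share of a cell's UMIs), 1 table per age. Whole UMIs were recovered for 100% of values within a tolerance of 2%. Cells were rescaled to 1000000 UMIs over the genes of all 4 tables, gated, and averaged per class and library (at least 5 cells). Gate thresholds were set after marker counts had been seen, and no doublet caller was run. limma 3.58.1 in R 4.3.3 was used with a mean trend, all genes, and, within an age, the library as a block. Both classes of a pair came from the same library, and their deviations correlated at 0.066 to 0.792. The self-test on simulated data, drawn without change, gave calls between E14 and E16 HCs, so weights per class and library were added as an alternative. Named genes were all members, the genes most like 5 of them and, where pathway genes are described, up to 4 called ones with the largest difference in a comparison. Members and lists were chosen with earlier results of these data known. P-values measure the spread between collections. Alternatives were another pseudocount, no filter, summed UMIs, stricter gates, no deep cells, other blocks and each library left out. Totals ran from 3828399 to 23523802 UMIs per library.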

Additional observations from a re-analysis of the deposited data

Results flagged for a closer look

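Dll3 in the inner HCs of P1 replicate 4 was at 4.16 CPM, far below the other P1 libraries at 57.3, 63.9 and 56.8 CPM. It was the 1 group of 33 groups of 4 libraries with such a gap, where chance gives about 1 in 20. P1 replicate 4 also had the lowest Dll3 level in all HCs (40.2 CPM) and in outer HCs (41.0 CPM). The same held in the earlier part (75.4 CPM) and the later part (15.2 CPM), so the low level was not particular to inner HCs. The difference between HCs and lateral SCs changed from E16 to P1 by -1.31 for Notch1, 1.03 for Jag2 and -1.80 for Lfng on the log2 scale, each by a limma test of the difference itself. As given above, the Notch1 and Jag2 calls were lost with stricter gates. The Jag2 call was also lost with 1 CPM added, without E16 replicate 3 or without any 1 of the P1 libraries.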

How the results depend on the processing

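Of 241 alternative counts of called members, 185 were within 1.5 times the count reported, and of 669 alternative values of the 60 called results 87 missed the threshold and 0 changed direction. Where a count moved, the cause was not tested. HCs against lateral SCs at E14 (1 member) gave 0 with a pseudocount of 1 CPM, no filter or summed UMIs, 2 with stricter gates, without deep cells or with no library block, and 4 with weights per class and library. At P7 it gave 3 (of 5) without deep cells. Lateral SCs against KO cells gave 4 with weights at E14 and at E16, 2 with stricter gates at P1, and 2 with stricter gates and 3 with weights at P7. Inner phalangeal cells against lateral SCs gave 2 with stricter gates. Inner against outer HCs at P1 gave 1 without deep cells and 0 with no library block, and at P7 1 with no library block. Later against earlier HCs gave 2 with no filter and 0 with no library block. HCs from E14 to E16 gave 0 with a pseudocount of 1 CPM, the replicate block or weights. From E16 to P1 they gave 1 with no filter or the replicate block and 6 with weights, and from P1 to P7 2 with the replicate block. Lateral SCs from E16 to P1 gave 1 with summed UMIs or stricter gates, and from P1 to P7 3 with weights. KO cells from E14 to E16 gave 2 without deep cells and 3 with weights. From E16 to P1 they gave 0 with a pseudocount of 1 CPM, no filter, summed UMIs, stricter gates or the replicate block and 3 with weights, and from P1 to P7 1 with stricter gates or the replicate block. The change of the difference from E16 to P1 gave 1 with stricter gates.

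With 1 library left out, the counts ran from 7 to 7 (HCs against lateral SCs, E16), 9 to 9 (P1), 2 to 2 and 4 to 4 (lateral SCs against KO cells, E16 and P1), 3 to 4 (inner phalangeal cells), 2 to 4 (inner against outer HCs, P1), 2 to 4 (later against earlier HCs, 2 without P1 replicate 2 or 4) and 2 to 3 (change of the difference). In HCs they ran from 1 to 2 for E14 to E16 (2 without E16 replicate 3), 1 to 3 for E16 to P1 (1 without E16 replicate 2 or P1 replicate 2 or 3) and 1 to 4 for P1 to P7 (1 without P7 replicate 4). In lateral SCs they ran from 2 to 2, 0 to 1 (1 without E16 replicate 3) and 1 to 2 (2 without P1 replicate 1). In KO cells they ran from 1 to 1, 0 to 2 (0 without E16 replicate 1, 2 or 3 or P1 replicate 2 or 3, and 2 without P1 replicate 4) and 1 to 4 (1 without P7 replicate 4). Within E14 and P7, leaving out 1 of 2 libraries gave values with no test. Libraries of different ages share only a replicate number (same-number correlations of -0.24 to 0.05), so the replicate block across ages is no pairing.

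The E14 HC class of 31 cells limits every E14 value that uses HCs. Gates rest on detected markers, and 46 of the 106 lateral SCs at E14 stood just at the gate.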

Other observations

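Other epithelial classes gated in the same way were placed in order with those above. By mean level HCs ranked first for Jag2, Dll1, Dll3 and Mfng at all 4 ages. At P7 the 16 inner phalangeal cells held 0 UMIs of each, which allows up to 24.1 CPM. This is above the P7 HC means of Dll1 (21.7 CPM) and Dll3 (8.54 CPM), whose first place at P7 is thus not established. Hensen's cells and the Claudius, outer sulcus and lesser epithelial ridge class rest at P7 on 1 library each, of 7 and 6 cells. Both stood at 0 CPM for Jag2 and Mfng, and the level that so few cells allow was not worked out. The first place of Jag2 and Mfng at P7 is thus not established against these classes. For Jag2 at P1 the next class was the cochlear roof, at 31.4 ± 27.5 CPM (SD, n = 3 libraries, 33 cells), against 243 ± 55.2 CPM (n = 4) in HCs. For Notch1 at P1, lateral SCs at 157 ± 27.9 CPM, cells gated on Claudius cell, outer sulcus and lesser epithelial ridge markers at 142 ± 88.0 CPM and inner phalangeal cells at 105 ± 34.1 CPM (SD, n = 4 each) lay within 2 SD of each other, and HCs came last at 3.45 ± 1.99 CPM. For Jag1 at P1 the order was inner phalangeal cells at 322 ± 53.8 CPM, lateral SCs at 193 ± 65.8 CPM, KO cells at 58.5 ± 12.9 CPM and Hensen's cells at 48.7 ± 20.0 CPM, of which the last pair differed by less than their spread.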
